A study of Mus musculus with 4 samples.

Results

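Open chromatin at the replication-dependent histone genes was examined in mouse natural killer (NK) cells, innate lymphocytes that kill infected and tumour cells. The 67 members are the protein-coding genes of GENCODE on mm10 whose names begin with Hist1h, Hist2h, Hist3h or Hist4h, out of 21755 such genes on the autosomes and X. The rule uses names only and no measured value, though it was set with earlier results of these data known. Hist1, on chromosome 13, holds 54 members, Hist2, on chromosome 3, holds 10, Hist3, on chromosome 11, holds 2, and Hist4, on chromosome 6, holds 1. By protein the members are 6 H1, 18 H2A, 18 H2B, 12 H3 and 13 H4 genes. The data are 4 DNase-seq libraries of primary NK cells, labelled as adult, 2 months old, female and of the hybrid strain B6CASTF1/J. DNase-seq maps the positions where the nuclease DNase I cuts accessible DNA. All 4 libraries belong to 1 group, with no treatment labelled, so no condition was compared with another. Each library has its own biosample but they share 1 donor identifier, and neither tissue nor sort is given, so an SD over libraries (n = 4 throughout) is the spread between these libraries and may be technical.

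Core histones H2A, H2B, H3 and H4 form the protein spool of the nucleosome, and the linker histone H1 binds the DNA where it enters and leaves. Cells make most of their histones in S phase, when new DNA must be packaged, from clustered genes without introns. Their mRNAs end in a conserved stem-loop, bound by SLBP, in place of a poly(A) tail, and the coactivator NPAT drives their transcription at the histone locus body. A few members, among them Hist1h1t, Hist1h2ba and Hist1h2aa, are known as testis histones of the male germ line.

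A member was called open when a peak lay within 1 kb of its annotated 5' end in at least 3 of the 4 libraries. By this rule 58 of the 67 members (86.6%) were open, against 50.4% of all protein-coding genes. Each of the 58 had a peak in all 4 libraries, where the share of all genes was 47.6%, and the other 9 members had none in any library, while 56.6% of all genes had a peak in at least 1. The peaks lay in 66 distinct regions seen in at least 3 libraries, of which 42 were within reach of 1 member, 20 of 2 members and 4 of 3 or more. A further 11 regions came from a single library, and 46 of the 66 spanned a member's 5' end.

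The open members were of moderate height. Promoter signal is the authors' value for the highest peak in the window, and how it is scaled between libraries is not stated, so values are given library by library. The median over the 44 distinct strongest regions of the members was 2.77, 3.11, 4.19 and 1.97 in replicates 1 to 4, a mean of 3.01 ± 0.919. All open protein-coding genes, counted per gene, had a median of 3.81, 4.82, 5.89 and 3.56. The members were lower in each of the 4 libraries. Ranked within each library among genes with a promoter peak, the median open member stood at percentile 39.8, 41.8, 45.5 and 33.2, where the median of all open genes stood at 52.0 ± 1.21. Of the 58, 8 were above the 75th percentile on average and 12 below the 25th. The lowest median, in signal and in rank, came from replicate 4. In bulk cells, fewer cells with an open promoter and a less open promoter in each cell cannot be told apart.

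**Figure D1:**
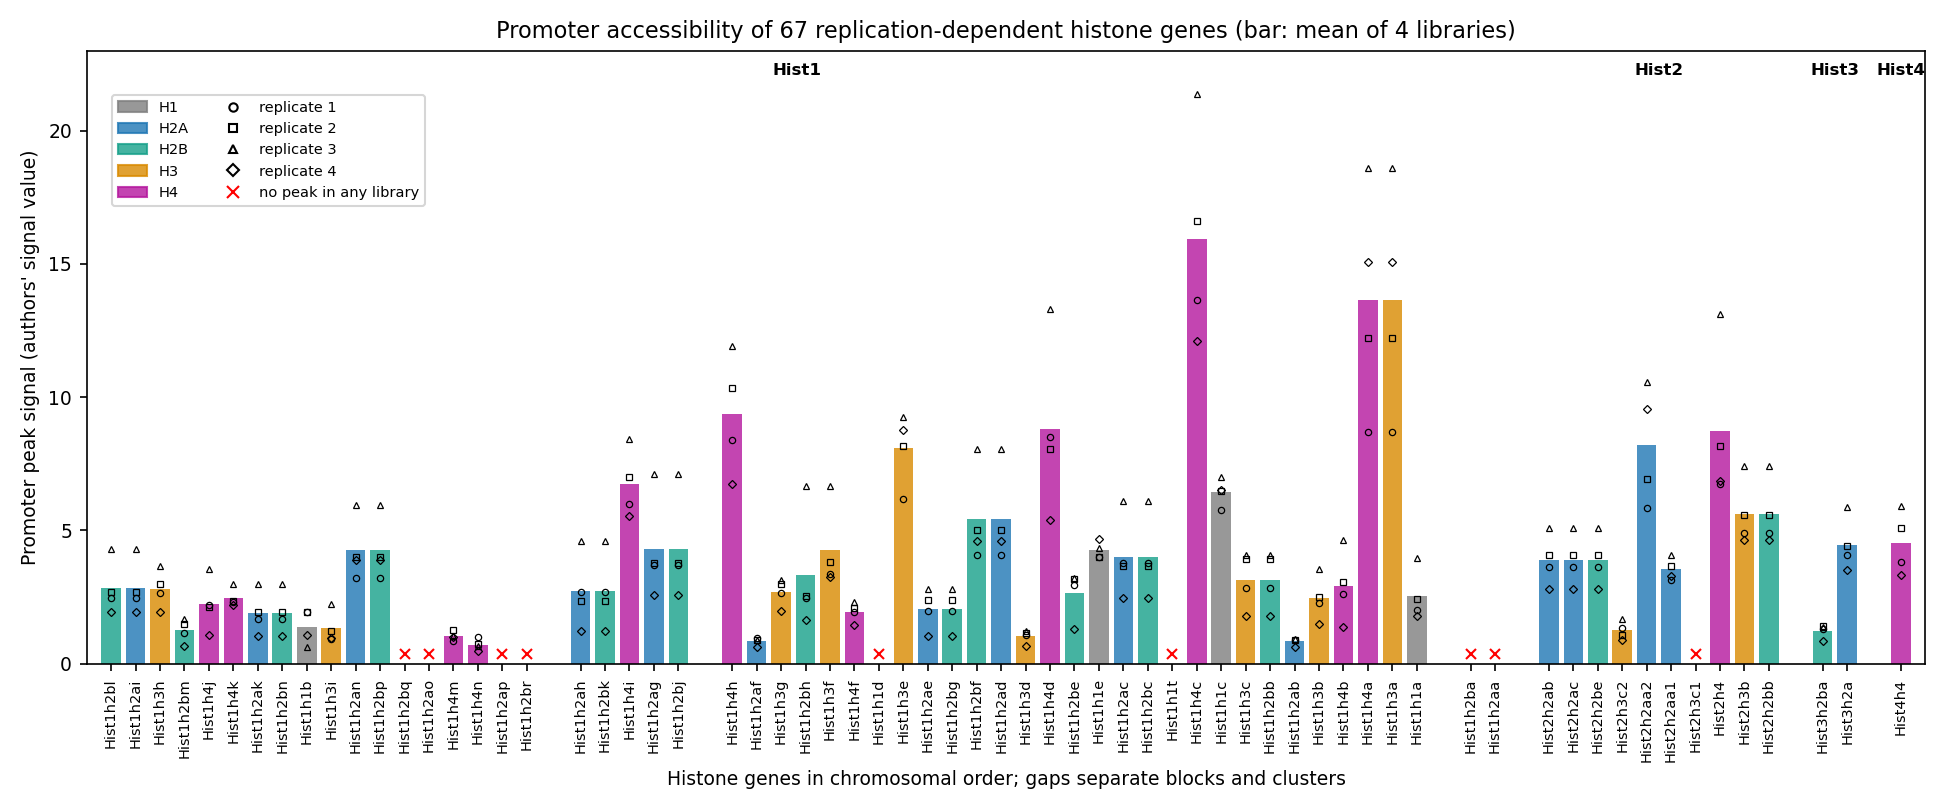
Promoter peak signal of the 67 histone genes in chromosomal order within each cluster; the bar is the mean of 4 libraries, coloured by histone type, symbols are the libraries and a cross marks a gene without a peak in any library. The tallest bars are Hist1h4c, with a mean of 15.9, and Hist1h4a and Hist1h3a, which share 1 region with a mean of 13.7, and of the 9 crosses 8 are in Hist1 and 1 is in Hist2.

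Promoter sequences were read from the mm10 genome for the 250 bases before and 50 bases from the 5' end, and searched on both strands for 11 motifs known from histone or lymphocyte promoters. The sequences below are those of the strongest member of each type, of Hist1h4a, whose motif matches carry the footprint result further on, and of the closed Hist1h1t. For H3 it is Hist1h3e, taken after the values were seen because the peak of Hist1h3a lies at Hist1h4a. Capitals mark matches to 9 motifs. The TATA box was searched as TATAAA. The box bound by NF-Y was searched as CCAAT. The octamer bound by POU2F1 was ATTTGCAT, and the forms of the E2F site were TTTCCCGC and TTTGGCGC. The core of the H4 element, bound by HINFP, was GGTCCG, and the AC box of H1 genes was AAACACA. The CREB/ATF motif was TGACGT and the SP/KLF motif was GGGCGG. Matches of different motifs may overlap, and each was counted. All are written 5' to 3' along the gene's own strand. They are Hist1h4c (chr13:23698405-23698704, minus), Hist1h4a (chr13:23761181-23761480, minus), Hist1h3e (chr13:23562320-23562619, minus), Hist2h2aa2 (chr3:96240227-96240526, minus), Hist2h2bb (chr3:96269502-96269801, plus), Hist1h1c (chr13:23738558-23738857, plus) and Hist1h1t (chr13:23695564-23695863, plus).
Hist1h4c: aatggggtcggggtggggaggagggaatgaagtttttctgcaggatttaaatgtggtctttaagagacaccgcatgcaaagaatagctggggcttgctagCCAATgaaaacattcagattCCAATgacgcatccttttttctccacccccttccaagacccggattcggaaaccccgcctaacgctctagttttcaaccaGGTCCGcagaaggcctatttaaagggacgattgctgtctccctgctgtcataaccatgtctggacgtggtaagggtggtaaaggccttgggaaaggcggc
Hist1h4a: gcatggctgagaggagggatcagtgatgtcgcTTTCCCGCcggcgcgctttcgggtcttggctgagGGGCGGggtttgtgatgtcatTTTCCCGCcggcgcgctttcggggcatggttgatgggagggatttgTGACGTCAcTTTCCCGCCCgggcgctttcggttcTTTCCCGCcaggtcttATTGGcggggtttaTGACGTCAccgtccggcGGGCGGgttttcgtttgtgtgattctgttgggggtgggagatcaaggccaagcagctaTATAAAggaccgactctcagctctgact
Hist1h3e: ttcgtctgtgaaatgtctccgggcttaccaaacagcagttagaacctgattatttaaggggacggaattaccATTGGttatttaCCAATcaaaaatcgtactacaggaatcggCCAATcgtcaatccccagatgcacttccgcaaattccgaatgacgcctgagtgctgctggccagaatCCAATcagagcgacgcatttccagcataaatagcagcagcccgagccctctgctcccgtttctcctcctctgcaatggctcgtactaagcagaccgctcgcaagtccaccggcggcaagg
Hist2h2aa2: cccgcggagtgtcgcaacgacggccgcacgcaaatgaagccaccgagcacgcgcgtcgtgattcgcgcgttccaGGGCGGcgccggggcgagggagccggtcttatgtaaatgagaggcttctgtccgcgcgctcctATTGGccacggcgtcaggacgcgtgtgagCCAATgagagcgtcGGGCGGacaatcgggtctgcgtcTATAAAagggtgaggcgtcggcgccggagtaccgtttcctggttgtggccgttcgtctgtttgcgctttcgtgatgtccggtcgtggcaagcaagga
Hist2h2bb: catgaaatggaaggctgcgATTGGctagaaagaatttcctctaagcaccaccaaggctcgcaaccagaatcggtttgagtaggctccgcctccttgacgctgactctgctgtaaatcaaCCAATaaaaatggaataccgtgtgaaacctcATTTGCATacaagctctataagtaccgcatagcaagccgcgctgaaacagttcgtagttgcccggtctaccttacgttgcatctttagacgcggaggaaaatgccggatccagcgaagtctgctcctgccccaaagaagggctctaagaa
Hist1h1c: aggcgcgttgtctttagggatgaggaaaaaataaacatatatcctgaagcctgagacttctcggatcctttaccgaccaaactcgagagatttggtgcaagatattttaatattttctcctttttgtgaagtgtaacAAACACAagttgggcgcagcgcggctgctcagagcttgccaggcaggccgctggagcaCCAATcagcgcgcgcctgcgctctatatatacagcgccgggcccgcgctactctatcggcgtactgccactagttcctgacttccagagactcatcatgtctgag
Hist1h1t: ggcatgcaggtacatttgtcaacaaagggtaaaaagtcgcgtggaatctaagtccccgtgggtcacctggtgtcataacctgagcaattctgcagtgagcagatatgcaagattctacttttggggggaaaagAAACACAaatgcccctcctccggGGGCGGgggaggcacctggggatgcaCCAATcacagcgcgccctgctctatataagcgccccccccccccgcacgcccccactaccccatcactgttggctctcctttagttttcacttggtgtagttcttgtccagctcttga

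Genes of histone H4, the core protein that pairs with H3, held the strongest promoters. Hist1h4c had a signal of 13.6, 16.6, 21.4 and 12.1 in replicates 1 to 4, a mean of 15.9 ± 4.09 and the 96.6th percentile, in a region of 240 bases at chr13:23698381-23698620. Hist1h4a had 8.71, 12.2, 18.6 and 15.1, a mean of 13.7 ± 4.21, at chr13:23761161-23761620. Replicate 3 was the highest for both genes, and their ranges overlapped between 12.1 and 18.6, so their order does not hold beyond the spread between libraries. Hist1h4h followed with 9.35 ± 2.27, Hist1h4d with 8.81 ± 3.30, Hist2h4 with 8.72 ± 3.00 and Hist1h4i with 6.74 ± 1.27. These 6 H4 regions were among the 8 strongest of the 44, and the other two belonged to Hist2h2aa2 and Hist1h3e.

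All 13 H4 members were open, but they spanned almost the whole scale. The weakest were Hist1h4m, at 0.858, 1.28, 1.05 and 0.999, and Hist1h4n, at 0.999, 0.725, 0.656 and 0.461, both under the 15th percentile (14.3 and 8.30). Hist4h4, alone in its cluster, had 3.82, 5.10, 5.93 and 3.33, near the middle of all open genes at a percentile of 51.3. The median H4 region was 4.54 ± 1.19 and the median of the regions of the other types was 2.97 ± 0.876. The difference was 1.05, 2.02, 1.86 and 1.37, and H4 was higher in 4 of 4 libraries. Within Hist1 alone the difference was -0.0470, 0.0705, 0.806 and 0.432, higher in 3 of 4 libraries and smaller than its own spread (0.315 ± 0.385). The 2 H4 genes outside Hist1 are Hist2h4 and Hist4h4. With 4 libraries an exact sign-flip test cannot reach 0.05, and none was made.

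H3 genes, whose protein carries many of the well-known tail modifications, ranged from 1.03 ± 0.243 at Hist1h3d to the 13.7 of Hist1h3a. The latter value belongs to the Hist1h4a region described above, which lies within 1 kb of the 5' end of Hist1h3a. The region that spans the 5' end of Hist1h3a itself had 1.89, 2.23, 3.97 and 1.66, a mean of 2.44 ± 1.05, so the rank of Hist1h3a depends on which region is taken. Hist1h3e had a strong region of its own at chr13:23562281-23562580, with 6.17, 8.17, 9.27 and 8.76 (8.09 ± 1.36), above every other H3 gene but Hist1h3a in every library. Hist1h3f reached 4.28 ± 1.62, through a region 289 bases from its 5' end. Of the 12 H3 members 11 were open, with a median region of 2.82 ± 0.712.

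Genes of H2A and H2B, which form a dimer in the nucleosome, often share a promoter. Among the members 13 neighbouring pairs were transcribed away from each other with 5' ends less than 1 kb apart, and 12 of these were an H2A gene beside an H2B gene, separated by 175 to 305 bases. A region seen in all 4 libraries lay between the 5' ends in 9 of the 12 pairs, and in 7 of them it spanned both 5' ends. The mean signal of these 9 regions ran from 1.92 (Hist1h2ak and Hist1h2bn) to 5.44 (Hist1h2bf and Hist1h2ad), with a median of 3.90. At Hist1h2bf and Hist1h2ad the libraries gave 4.09, 5.01, 8.05 and 4.62, and at Hist1h2ag and Hist1h2bj 3.71, 3.78, 7.13 and 2.59. Replicate 3 was again the highest in both, and the ranges of the pairs overlapped. The 3 pairs without a region were Hist1h2bq with Hist1h2ao, Hist1h2ap with Hist1h2br, and the testis pair Hist1h2ba with Hist1h2aa. No signal can be divided between the 2 genes of a pair.

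The stretch between the 5' ends of 1 open H2A and H2B pair, Hist1h2ag and Hist1h2bj (chr13:22042944-22043214, plus strand), is shown because both genes read outward from it. Capitals mark TATA boxes, CCAAT boxes and octamers on either strand.
Hist1h2ag-Hist1h2bj: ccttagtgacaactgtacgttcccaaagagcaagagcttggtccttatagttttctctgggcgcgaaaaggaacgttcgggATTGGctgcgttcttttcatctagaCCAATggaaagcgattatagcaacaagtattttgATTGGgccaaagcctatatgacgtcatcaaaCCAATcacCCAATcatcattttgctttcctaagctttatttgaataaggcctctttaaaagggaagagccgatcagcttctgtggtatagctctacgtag
It holds 5 CCAAT boxes and no octamer or exact TATA box. The gap of the closed testis pair holds 4 CCAAT boxes, 2 TATA boxes and 1 octamer. All 12 pairs had between 2 and 5 CCAAT boxes and 5 of the 12 an octamer, so neither motif separated the 9 pairs with a region from the 3 without.

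The extremes of H2A were Hist2h2aa2, at 5.84, 6.92, 10.6 and 9.55 (8.22 ± 2.21), and Hist1h2af and Hist1h2ab, the lowest (0.841 ± 0.135 and 0.839 ± 0.143) and at percentiles 10.9 and 10.8. Among H2B genes Hist2h2bb was highest, at 4.89, 5.57, 7.41 and 4.64 (5.63 ± 1.25), in a region shared with the H3 gene Hist2h3b, whose own 5' end lay under a weaker region of 2.28 ± 0.878. Hist1h2bp, in a pair with Hist1h2an, had 4.26 ± 1.18. Hist1h2bm (1.25 ± 0.435) and Hist3h2ba (1.23 ± 0.269) were lowest. Of the 18 genes of each type 15 were open, and the median region was 3.56 ± 0.985 for H2A and 3.29 ± 1.13 for H2B.

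By their annotated 5' ends the linker histone genes were the least often open, 4 of 6. Hist1h1c had 5.77, 6.49, 7.02 and 6.52, a mean of 6.45 ± 0.514, and Hist1h1e had 4.02, 3.99, 4.34 and 4.69, a mean of 4.26 ± 0.329. Hist1h1c was the higher in every library and the 2 ranges did not overlap. Hist1h1a reached 2.56 ± 0.979. Hist1h1b had 1.95, 1.92, 0.615 and 1.07, a mean of 1.39 ± 0.659, but these values come from 2 regions. The region that spans its 5' end had 0.987, 0.977, 0.615 and 0.673 (0.813 ± 0.197). The other, at chr13:21779421-21779780 near the edge of the window, had 1.95, 1.92, 2.49 and 1.07 over its whole length, so the 0.615 of replicate 3 is not a lower signal of the same region. The 2 closed H1 genes were Hist1h1d and Hist1h1t. Around its RefSeq start Hist1h1d had a peak in all 4 libraries, so the last place of H1 rests on the annotation used.

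**Figure D2:**
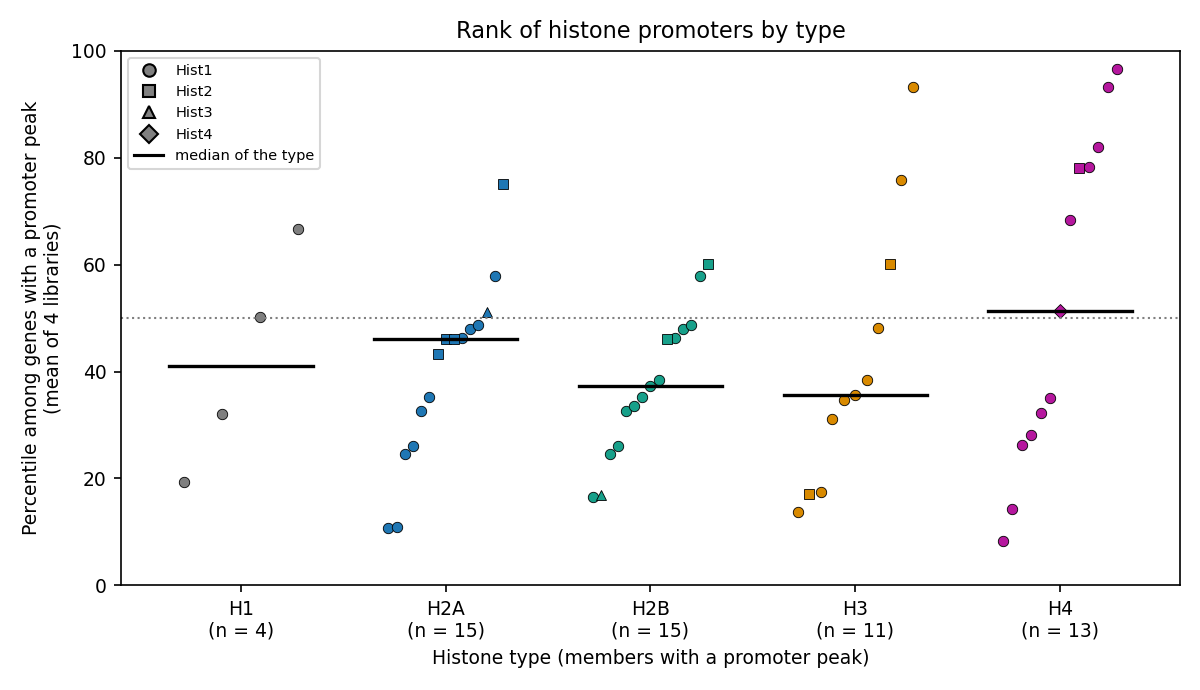
Percentile of each open member among protein-coding genes with a promoter peak, averaged over 4 libraries, by histone type; symbols give the cluster, the bar is the median of the type and the dotted line is the 50th percentile. Of the 8 members above the 75th percentile 5 are H4, 2 are H3 (1 of them Hist1h3a through the Hist1h4a region) and 1 is H2A, and every type reaches down to the 25th percentile or below.

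The clusters also differed in height. In Hist2 9 of 10 members were open, with a median over members of 3.62, 4.07, 5.10 and 3.30, and in Hist1 46 of 54 were open, with 2.67, 2.99, 4.29 and 1.87. Hist2 was higher in 4 of 4 libraries by 1.06 ± 0.266, and over distinct regions, 6 in Hist2 and 35 in Hist1, by 2.02 ± 0.364. Except in replicate 4, the Hist2 median over members was the value of a single region, shared by Hist2h2ab, Hist2h2ac and Hist2h2be. Both Hist3 members were open. Hist3h2a had 4.07, 4.41, 5.89 and 3.51 (4.47 ± 1.02), and its annotated 5' end is also that of Trim17, an E3 ligase gene, so its peaks serve both genes.

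In Hist2 the open members were Hist2h2aa2, Hist2h4, Hist2h3b and Hist2h2bb, described above, Hist2h2ab, Hist2h2ac and Hist2h2be, which shared a region of 980 bases with 3.62, 4.07, 5.10 and 2.82 (3.90 ± 0.952), Hist2h2aa1 with 3.14, 3.67, 4.08 and 3.30 (3.54 ± 0.419), and Hist2h3c2 with 1.33, 1.09, 1.69 and 0.894 (1.25 ± 0.345). The nearest region of Hist2h2ab was a separate one of 2.37 ± 0.890. The region that spans the 5' end of Hist2h3c2 had only 0, 0.665, 0.631 and 0.894 (0.547 ± 0.383), with no peak in replicate 1.

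Hist1 is not 1 array. Split wherever neighbouring members lay over 100 kb apart, it fell into 4 blocks. The block of 18 genes at chr13:21715763-21837530 had 14 open members and a median region of 1.95, 1.92, 2.97 and 1.07. The block of 29 genes at chr13:23531050-23764406 had 27 open members and a median region of 2.94, 3.67, 4.34 and 1.99, higher in 4 of 4 libraries by 1.26 ± 0.380. A small block of 5 genes at chr13:22035164-22043676 was open throughout, with a median of 4.30 ± 1.96 over 3 regions, and the last, the testis pair, was closed. Within the span of Hist1 lie 49 other protein-coding genes, mostly Vmn1r vomeronasal receptors in the gaps between blocks, and 6 of them (12.2%) were open. Inside a block of Hist1 lies 1 other gene, Hfe, a regulator of iron uptake, and it was open in all 4 libraries with a signal of 1.32 ± 0.523.

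The 9 closed members form 3 kinds. Hist1h2bq, Hist1h2ao, Hist1h2ap and Hist1h2br are 2 head-to-head pairs in the first block, with 5' ends at 21810197 and 21810465 and at 21833507 and 21833743. For each of them 100% of positions within 1 kb of the 5' end began a 32-base stretch that occurs elsewhere in the genome. The same held for stretches of 76 bases. Copied shares here and below count such starting positions, so below 100% the share of bases inside a copy can be higher. The 2 pairs are inverted copies of each other. Their shared stretch filled the whole searched length of 2077 bases, and how far it extends beyond was not measured. Hist2h3c1 was copied over 79.3% of its window at 32 bases and 72.7% at 76, mostly at Hist2h3c2. A read that fits 2 places equally well has no single position, and neither the read length nor the handling of such reads is given in the sources used here.

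Copying did not go with a missing peak at every gene. The promoter was taken from 250 bases before to 50 after the 5' end. Copied stretches of 76 bases started at over 50% of its positions in 5 of the 9 closed members and in 5 of the 58 open ones. The open ones were Hist1h4m, Hist1h4n, Hist2h3c2, Hist2h2aa1 and Hist2h2aa2. Of these Hist1h4m, Hist1h4n and Hist2h3c2 were among the weakest open members. Hist2h2aa2, with a copied share of 58.5% of its window at 32 bases, was the strongest H2A gene. The 2 inverted copies in Hist2 differed in signal, with 8.22 at Hist2h2aa2 against 3.54 at Hist2h2aa1, and with 1.25 at Hist2h3c2 against no peak at Hist2h3c1. In the median open member copied stretches of 32 bases started at 0% of promoter positions but at 53.2% of gene body positions. The part of copying in these values was not tested.

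The second kind is the testis genes. Hist1h1t, Hist1h2ba and Hist1h2aa had no peak. Copied stretches of 32 bases started at 0%, 10.5% and 10.5% of their window positions, and none started in the promoter. Hist1h1d is the third kind. Its annotated 5' end, at position 23553262, lies 1828 bases before its start codon, and the RefSeq start of the same gene, H1f3, lies 1770 bases further along. A peak within 1 kb of that RefSeq start was present in all 4 libraries, with a mean of 1.37, so the closed call of Hist1h1d rests on the annotation used. With the window placed around the start codon of every member, 59 were open.

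The authors' per-base false discovery rates (FDR), which list bases below 0.05, were read at the same windows. All 58 open members had listed bases in every library, close to the 98.9% ± 1.39 of other open protein-coding genes per library. Of the 9 closed members 8 had none in any library, and Hist2h3c1 had 30 bases in replicate 3 only, with a lowest FDR of 0.0325. Among other closed protein-coding genes 1.42% ± 0.548 had a listed base.

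**Figure D3:**
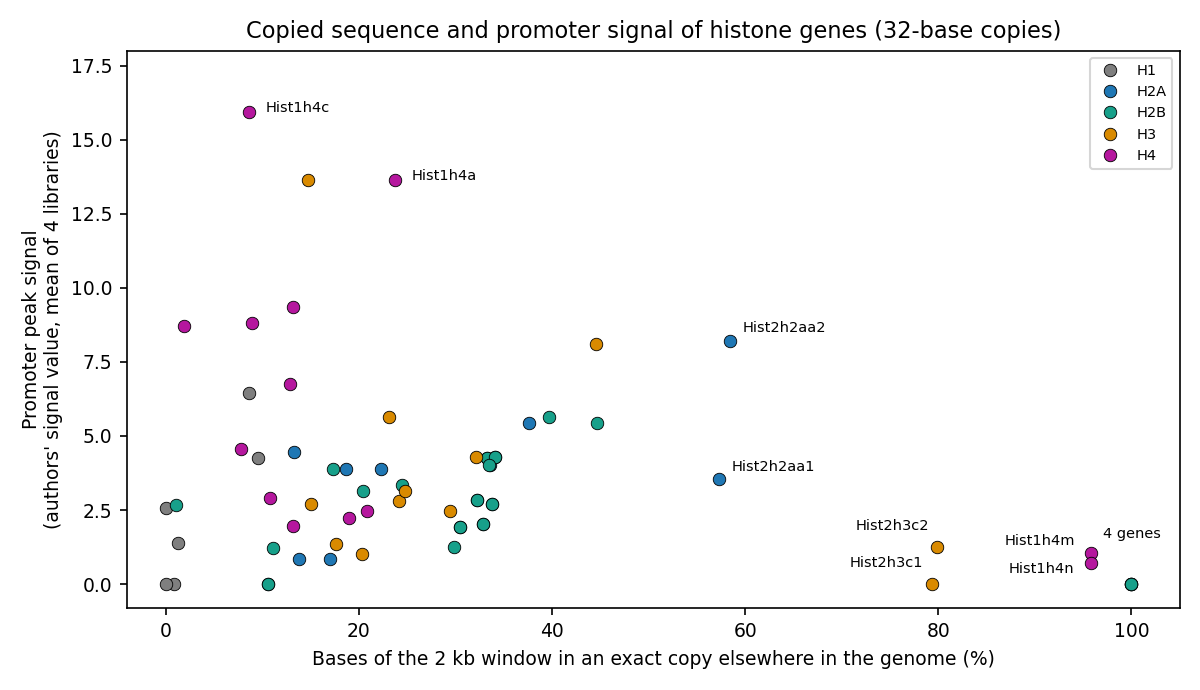
Copied share of the 2 kb window around each member's 5' end against the mean promoter signal of 4 libraries, coloured by histone type. The share counts positions that begin a stretch of 32 bases found elsewhere in the genome, though the axis names bases in a copy. The 4 genes at 100% have no peak and Hist1h4m and Hist1h4n at 95.9% and 95.8% are weak, while Hist2h2aa2 at 58.5% reaches 8.22.

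Motif matches in the promoters differed by type. The H4 element core was present in 12 of 13 H4 promoters, as in Hist1h4c and not in the printed Hist1h4a window, which instead holds 4 E2F matches and repeated CREB/ATF and SP/KLF matches. The core was also in 2 H3 genes and 1 H2B gene, against 9.69% of all protein-coding promoters. In H4 genes its first base lay at a median of -49 from the annotated 5' end, with quartiles of -68.5 and -47. The CCC form of the E2F site occurred in 3 of 13 H4 promoters and no other member (1.35% of all promoters), and the GGC form in no member (0.699% of all).

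CCAAT boxes marked the other types. All 18 H2A and all 18 H2B promoters had at least 1, as did 11 of 12 H3 and 5 of 6 H1 promoters, against 4 of 13 for H4 and 38.9% of all genes. The octamer was confined, among the members, to H2A (7 of 18) and H2B (8 of 18) genes, against 1.59% of all promoters. For the CCAAT box and the octamer alike, a divergent pair can count the same letters under both of its genes. The counts for H2A and H2B are therefore not of separate promoters. The AC box was found in 4 of 6 H1 promoters, in 5 other members and in 6.44% of all genes. It was present in the closed Hist1h1t at position -117 from the 5' end, and in Hist1h1c at -113. A TATA box lay in 37 of 67 promoters (55.2%, all genes 12.7%). The ETS motif CCGGAA was found in 2 members (2.99%) against 17.6% of all genes and 29.3% of open ones, and the RUNX motif TGTGGT in 7 (10.4%) against 15.3%. SP/KLF matches were present in 41.8% of members, 43.4% of all genes and 63.9% of open genes.

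The promoters of the 67 members had a median GC content of 45.3%, against 60.3% for all open genes. Their CpG ratio, the observed count over that expected from base content, was 0.750 against 0.767. Of the 67 members 60 carried the histone stem-loop within 150 bases after the stop codon, and the most common form, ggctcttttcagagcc, was in 38 of them. The 3 testis genes and Hist1h1d all had a match, and the 7 without a match were Hist1h4j, Hist1h2an, Hist1h2bp, Hist1h2bq, Hist1h2br, Hist1h4b and Hist2h2be. A fixed pattern was searched after the outermost annotated coding end of each gene. A gene without a match may therefore still carry the stem-loop in another form or after another stop codon. A stem-loop match did not separate open from closed members.

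**Figure D4:**
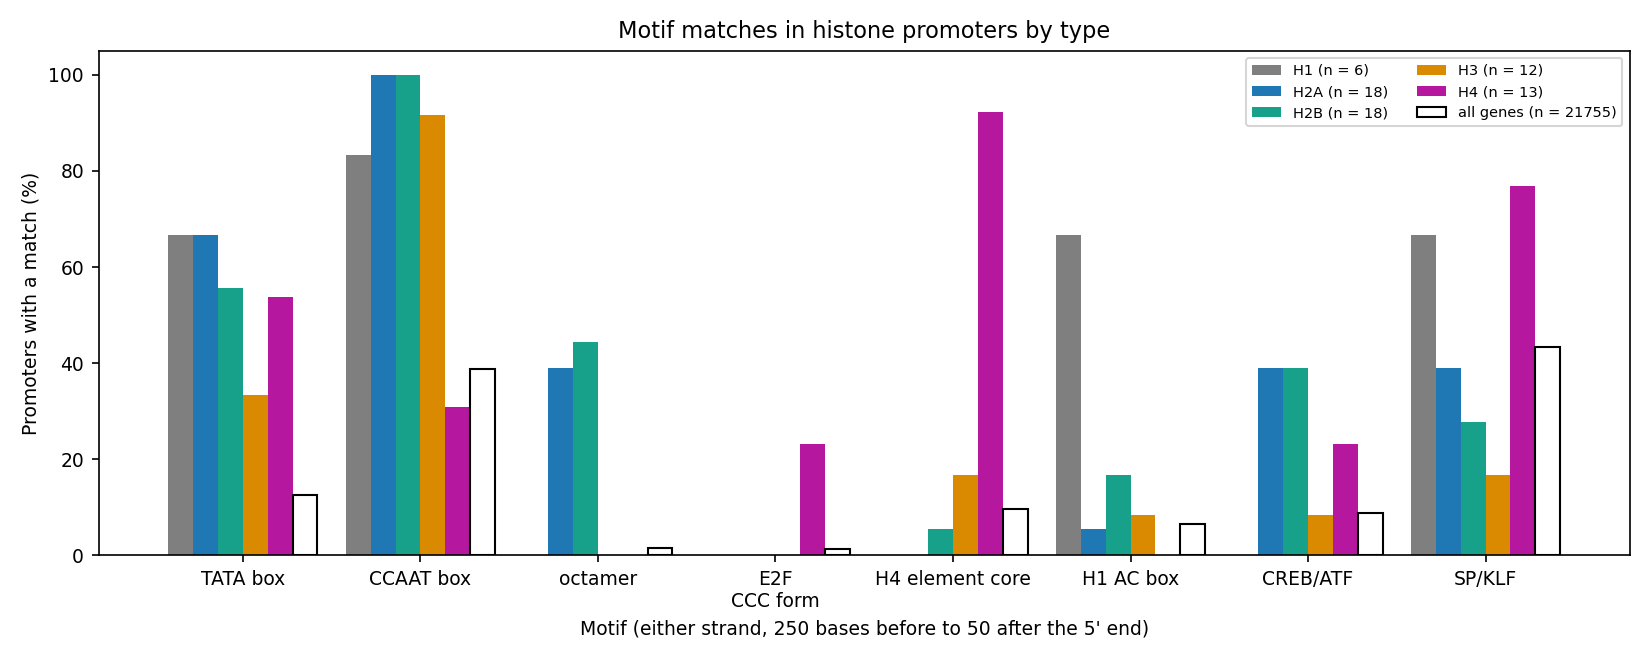
Share of promoters (250 bases before to 50 after the 5' end) with a match on either strand to each of 8 motifs, by histone type and for all 21755 protein-coding genes. The H4 element core is at 92.3% in H4, the CCAAT box at 100% in H2A and H2B, and the octamer only in H2A and H2B among the types.

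Peaks of the members covered the annotated 5' end and the bases before it. For some members, such as Hist1h2bl and Hist1h4k, that 5' end is the first base of the start codon. Their RefSeq starts lie at -40 and -48 from it. Profile, promoter window and motif positions of such members are therefore shifted against those of other genes. In the 50 bases before the 5' end 78.7% ± 1.36 of the bases of open members were in a peak, against 71.7% ± 1.95 in the 10904 other open genes. In the bin from -300 to -251 the shares were 32.6% ± 8.22 and 14.6% ± 2.14. This upstream reach was largest in the paired types, 70.1% ± 12.1 for H2B and 44.4% ± 18.7 for H2A, against 10.8% ± 3.79 for H4 and 2.27% ± 4.55 for H3, and upstream of a paired gene lies its partner. Downstream, 300 to 349 bases after the 5' end, the members had 11.7% ± 2.46 and other genes 17.4% ± 0.598.

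**Figure D5:**
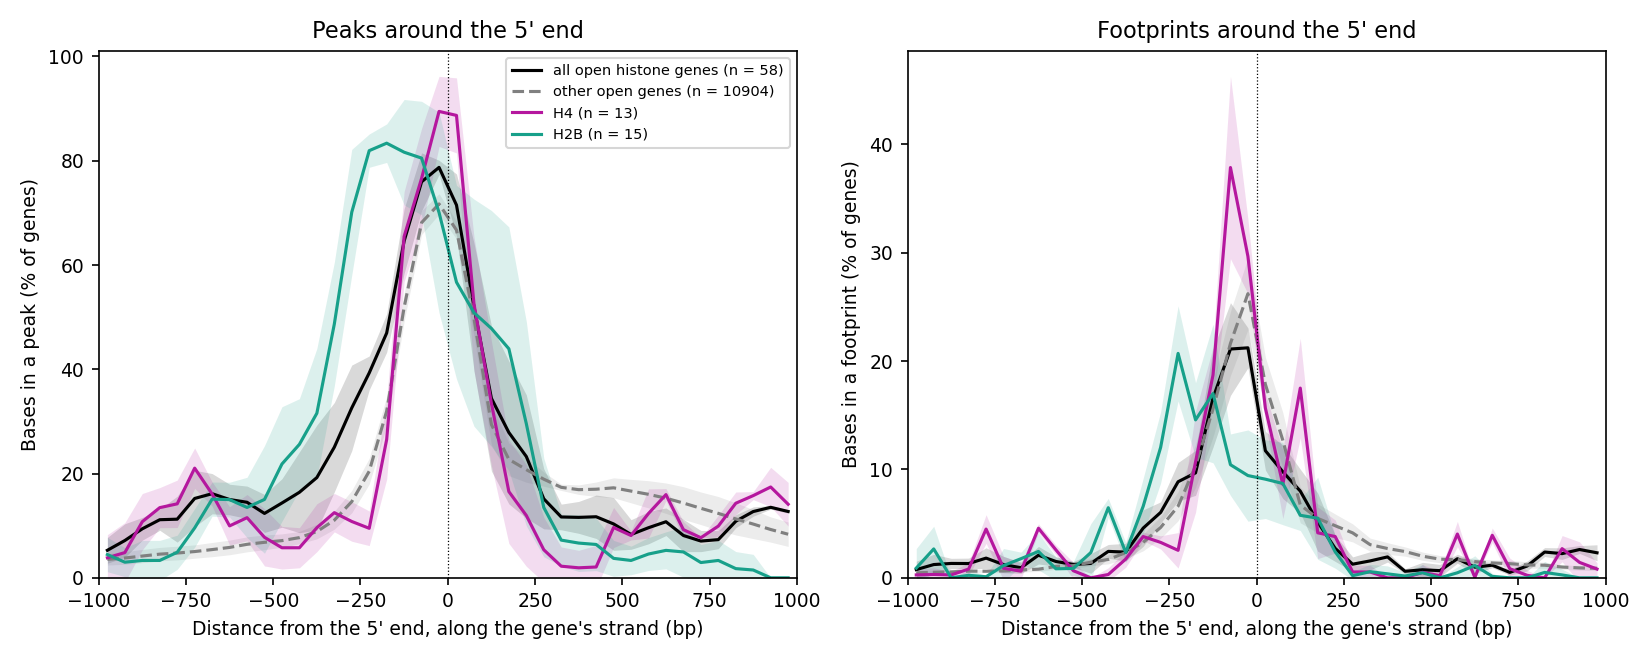
Share of bases in a peak (left) and in a footprint (right) by distance from the 5' end in bins of 50 bases, as the mean of 4 libraries with a band of 1 SD, for all open members, H4, H2B and other open genes. H4 reaches 89.5% in peaks and 37.8% in footprints just before the 5' end, while H2B stays above 70% in peaks from 300 bases upstream to the 5' end.

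Footprints, short protected stretches inside accessible DNA that the authors called per library, were present within 1 kb of 57 of 67 members in at least 3 libraries, against 48.5% of all genes. The exception among open members was Hist1h1b, with 5, 0, 0 and 2 footprints in replicates 1 to 4. Open members had 6.98, 7.41, 7.71 and 6.02 footprints per gene, a mean of 7.03 ± 0.738, and all open genes had 6.04, 6.47, 7.39 and 5.28, lower in each library. These counts, and the peak bases below, are per gene window. A footprint or peak within reach of several members counts under each of them, as in the divergent pairs. The comparison was not repeated with each footprint counted once. Peaks covered more of the window in members, 469 ± 75.4 against 382 ± 37.2 bases, with 1.82 against 1.59 peaks per window. Footprints took up less of the peak bases, 18.1% ± 4.19 against 22.8% ± 2.40. By type this share was highest in H4 (24.4% ± 4.32) and lowest in H2B (14.9% ± 5.37). The members with the most footprints were Hist2h2ac (14.5 on average), Hist1h4h (14.25) and Hist3h2a (13.75).

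Motif matches differed in how often a footprint covered at least 80% of their letters. Over the open members 14.9% ± 2.46 of all promoter bases lay in a footprint. CREB/ATF matches were covered in 67.9% ± 4.12 of 14 cases, where a palindromic site counts once on each strand and a match shared by a pair counts once. In all 4 libraries a footprint covered the matches of Hist3h2a, of the pair Hist1h2ag and Hist1h2bj, of Hist1h4h and both sites of Hist1h4a, and none covered those of Hist1h4i, of Hist1h2bh or of the pair Hist1h2bf and Hist1h2ad in any library. TATA boxes were covered in 33.3% ± 5.44 of 30, SP/KLF matches in 32.7% ± 5.69 of 39 and the 15 H4 element cores in 20% to 53.3% by library. At Hist1h4c the H4 element was covered in all 4 libraries and the nearer of its CCAAT boxes in 3. CCAAT boxes, though the most frequent motif, were covered in 10.1% ± 2.61 of 99 matches, octamers in 5.56% ± 6.42 of 9 and AC boxes in 0 of 8. These letters are descriptions of sequence, and a footprint does not name the protein that made it.

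Genes that act with the members had higher medians than the members. Of 20 genes for histone gene transcription and pre-mRNA processing 18 were open, with a median signal of 9.13 ± 2.15. The highest were Nfya, a subunit of NF-Y (21.95 ± 5.68), Casp8ap2, a histone locus body protein (18.7 ± 4.48), Ccne1, the cyclin partner of CDK2 (16.8 ± 4.48), and Npat (16.2 ± 5.13), and the 2 without a peak in any library were Nfyc and Zfp473. All 12 histone chaperone genes were open (7.99 ± 1.76), led by Nap1l4 (17.3 ± 3.86), Chaf1b (10.6 ± 2.51), Daxx (10.02 ± 2.11) and Nap1l1 (9.86 ± 1.57). Of 11 replication-independent histone genes 8 were open (7.49 ± 1.83), led by H2afv (14.1 ± 3.51), H2afx (13.4 ± 3.48), H2afz (10.3 ± 2.43) and H2afj (9.39 ± 2.26), and H2afy2 and H3f3b had no peak. All 11 proliferation genes were open (7.45 ± 1.96), with Mcm5 at 13.7 ± 2.94, Mcm4 at 12.7 ± 2.72, Top2a at 11.9 ± 3.85 and Pcna at 8.68 ± 1.64. The medians of these 4 lists were above the median of the members in every library, a description of lists and not a test. Genes of these lists, and of the marker lists below, were read only at the annotated gene 5' end. Other starts were not tried, so a missing peak, as at H3f3b or Nfyc, holds for that 5' end only.

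The libraries held between 36247 and 69144 peaks and between 95919 and 185119 footprints, the most in replicate 3, and read depth is not given in the files. Of 9 NK cell marker genes 6 were open (66.7%, against 50.4% of all protein-coding genes). The other 3 had a peak in 1 or 2 libraries. The summed promoter signal of the 9 was 21.4 to 59.6 per library, highest in replicate 3. Of 6 B cell markers 4 were open (66.7%) at low signal, with sums of 1.73 to 7.42, lowest in replicate 3. Of 6 T cell markers 1 was open, with sums of 0.505 to 1.12, and Cd3d, Cd3e, Cd4 and Cd8a had no peak. Of 5 myeloid markers 1 was open, and Lyz2, Csf1r, Cd14 and S100a8 had no peak. Of 4 erythroid markers 2 were open, and Gata1 and Klf1 had no peak. Whether cells of these types add to the histone values was not tested.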

How the data were processed

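Per the deposited readmes, each library's peaks, per-base FDR and footprints derive from that library's own filtered mm10 alignments. No source used here gives aligner, callers, versions, settings or read length. The deposited peak lists carry a signal value per peak, used as it stands, and the longer of the 2 lists per library was taken. The authors' p_value columns hold the FDR (a p-value type measure, listed below 0.05) and, for footprints, the constant 0.01, which was not used.

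Gene 5' ends came from GENCODE on GRCm38, the assembly of mm10. Promoter signal is the highest peak signal within 1000 bp of the 5' end (any overlap), and 0 without a peak. Touching or overlapping peaks of the 4 libraries were merged into regions, counted once. Exact copies of 32 and 76 bases were searched on both strands, and copied shares count their starting positions. The tools were bedtools 2.31.1, Python 3.11.15 and pandas 2.3.3. RefSeq starts on the same assembly were matched by synonym for 61 members. Peak assignment was tested on simulated data, where 800 of 800 values over 200 genes were recovered.

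No groups are contrasted, so no test was made. Members, gene lists and motifs were chosen with earlier results of these data known. Named were all Hist2, Hist3 and Hist4 members, all members without a peak, the 4 highest and 2 lowest of each type, and of each list the 4 highest and those without a peak. Members named beyond this rule (such as Hist1h2ak, Hist1h4i and Hist1h2bh) were named after their values were seen. Alternatives covered the peak list, window, 5' end, recurrence, number of peaks, region counting and each library left out. The value of 1 marker gene is not reported here.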

Additional observations from a re-analysis of the deposited data

Results flagged for a closer look

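In 4 of 64 results checked, 1 library stood far from the other 3. Chance flags about 1 in 20 such groups. The region of Hist1h2bh and Hist1h3f had a signal of 6.68 in replicate 3, above 3.26 to 3.81 in the others. The strongest region near the annotated 5' end of Hist1h2be, an H2B gene, had 1.32 in replicate 4, below 2.94 to 3.19. That 5' end lies 30 bases from the RefSeq start but 35168 bases before the start codon. Around the start codon the signal was 3.49, 3.64, 3.82 and 1.87 in replicates 1 to 4. Hist1h2ab, an H2A gene, had 0.625 in replicate 4, below 0.905 to 0.922. Open H1 genes had 8.25 footprints per gene in replicate 1 and 6.75 in each other library. The cause was not tested.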

How the results depend on the processing

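The count of 58 open members ran from 43, when a peak had to span the 5' end, to 59 with RefSeq starts, and was 58 with any 1 library left out. The open share of all protein-coding genes was not recomputed under these rules or around start codons, so these counts have no background beside them. RefSeq starts and the region nearest the 5' end were added after seeing the data. The promoter signal of the members, a region median of 3.01, ran from 2.56 to 3.35 with 1 library left out, and as a percentile the members' median was 40.1. In the cluster comparison the difference between Hist2 and Hist1 ran from 0.943 to 1.15 with 1 library left out and was 2.02 over distinct regions. In the histone type comparison the difference between H4 and the others stayed positive, from 1.17 to 1.80 over all alternatives. The promoter footprints of the members, per open gene, fell from 7.03 to 5.75 in a 500 bp window and to 4.94 where a peak had to span the 5' end, both windows or peak sets being smaller by construction, and ran from 6.80 to 7.37 with 1 library left out. Requiring the peak to span the 5' end moved the signal of 20 members, and 4 members were left without a peak in any library. The cluster and histone type differences kept their direction under each alternative run. The other differences (members against all open genes in signal and footprints, between blocks, and H4 within Hist1) were not recomputed under alternatives. Read depth and read length are not given, so neither counting error nor the placing of reads in copied sequence could be computed.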
